A study of Homo sapiens with 6 samples.

Results

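The ATG8 family of ubiquitin-like proteins and the cargo receptors that bind it were followed through RNA sequencing of HCT-116 cells, an established human colon carcinoma line. The 10 genes were chosen by symbol from a deposited table of 60546 genes. They are 5 ATG8 genes (MAP1LC3A, MAP1LC3B, GABARAP, GABARAPL1 and GABARAPL2) and 5 receptor genes (SQSTM1, NBR1, OPTN, TAX1BP1 and CALCOCO2), and all 10 were found. The study compared 3 libraries of HCT-116 cells carrying the viral vector PMSCV with GOLPH3, a Golgi phosphoprotein, with 3 libraries of cells carrying the empty PMSCV vector. Every library is labelled wild type in genotype, all were grown in the same serum-containing medium, and both lines were stable lines made by viral infection, so each label stands for 1 line sampled at different generations. Each title also holds a P number, namely P8, P12 and P13 under the GOLPH3 label and P12, P11 and P13 under the Vector label. The labels do not say what P stands for, and the libraries are named here by label and P number.

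ATG8 proteins are made as precursors, trimmed by ATG4 proteases and attached to a lipid of the growing autophagosome membrane by a ubiquitin-like conjugation cascade. Cargo receptors hold ubiquitin-marked or otherwise labelled cargo with a separate domain and dock it to lipid-bound ATG8 proteins through a short motif, after which receptor and cargo are broken down together in the lysosome. Because the proteins are consumed in this way, the transcript levels reported here do not measure lipid attachment or autophagic flux.

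The recovered depth was 15708846 to 21900764 reads a library, and a count of 0 allows up to 3 reads, equal to 2.47 to 3.29 normalized reads (reads divided by the size factor of the library). That limit covers counting error only. The GOLPH3 transcript, at 1629.5, 1272 and 1383 normalized reads under the GOLPH3 label and 1968, 1892 and 1472 under the Vector label, was not higher under its own label (log2 difference -0.31, limma adjusted p = 0.609), and the groups are called by their labels. Of 13 colon epithelial markers, KRT20 and CDX1 were at 3 reads or fewer in every library, and the summed level of the list was 62857 to 134429 normalized reads under the GOLPH3 label against 30032 to 41160 under the Vector label. A list of 8 genes typical of HEK293 cells summed to 142 to 156 normalized reads under the GOLPH3 label, where 6 of the 8 had 3 reads or fewer, against 4326 to 12022 under the Vector label. Sums were 824 to 1517 against 480 to 785 for 7 fibroblast markers, 2.47 to 7.51 against 19.7 to 54.1 for 5 leukocyte markers, and 24.7 to 41.9 against 23.7 to 31.8 for 4 endothelial markers. COL1A2 and DCN (fibroblast), PTPRC, CD3E and CD68 (leukocyte) and INA (HEK293) were at 3 reads or fewer in every library. The part of the differences between these sums in the results on the labels was not tested. In bulk RNA fewer cells of a type cannot be told apart from less RNA per cell.

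Leaving aside MAP1LC3A and GABARAP, which had few reads, MAP1LC3B had the widest range between libraries of the ATG8 genes. It encodes LC3B, the family member most used to mark autophagosomes, and lies on chromosome 16 from 87383995 to 87404779 on the plus strand (GENCODE 29, GRCh38, as for all gene coordinates here). Its near-copy MAP1LC3B2 on chromosome 12 (116548105 to 116576448) shares almost all of its coding sequence, so the measurement of MAP1LC3B begins with how far the transcripts can be separated. Without the stop codon both coding sequences have 375 bases, which differ at 2 positions counted from the A of the start codon, C30G and A338G (MAP1LC3B first), and are 99.47% identical. The stretches that hold the differing bases, in capitals, are shown as the 75 bases from position 1 and the 75 bases from position 301 of the GENCODE 29 transcripts.
MAP1LC3B, from 1: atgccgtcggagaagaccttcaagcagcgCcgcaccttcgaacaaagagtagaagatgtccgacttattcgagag
MAP1LC3B2, from 1: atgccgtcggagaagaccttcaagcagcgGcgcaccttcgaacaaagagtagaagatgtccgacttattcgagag
MAP1LC3B, from 301: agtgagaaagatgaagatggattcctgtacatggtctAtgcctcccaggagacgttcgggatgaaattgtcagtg
MAP1LC3B2, from 301: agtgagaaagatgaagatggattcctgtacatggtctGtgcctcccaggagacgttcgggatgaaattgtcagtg

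Between the differing bases lie 307 bases that are the same in both genes. Over whole transcripts the genes share less, since 265 of the 5498 distinct 50-base words of MAP1LC3B (4.82%) also occur in MAP1LC3B2. MAP1LC3B2 had 91.2, 747 and 252 normalized reads at P8, P12 and P13 under the GOLPH3 label and 281, 98.6 and 187 at P12, P11 and P13 under the Vector label. It was therefore 2.55% to 7.92% of the MAP1LC3B value in every library. How reads that match both genes were assigned is not given in the sources used here, so the level of MAP1LC3B2 is uncertain.

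MAP1LC3B had 2437, 12115 and 3772 normalized reads at P8, P12 and P13 under the GOLPH3 label. Under the Vector label its values were 11019.5, 2668 and 2362 at P12, P11 and P13. Both P12 libraries stood far above the other 4, whose values lay within 2362 to 3772, and the labels overlapped fully.

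GABARAPL2, also called GATE-16 and linked to transport within the Golgi as well as to autophagy, was the steadiest member. It lies on chromosome 16 from 75566351 to 75577881. It had 950.0, 756 and 921 normalized reads at P8, P12 and P13 under the GOLPH3 label and 1009.7, 1119.6 and 969.8 at P12, P11 and P13 under the Vector label. All 3 libraries labelled GOLPH3 were below all 3 labelled Vector, with 921 and 969.8 as the nearest values. GABARAPL1 (chromosome 12, 10212458 to 10223130), a stress-responsive close relative of GABARAP, had 557, 839 and 891 normalized reads against 819, 564 and 613 in the same order. Its P8 and P11 libraries were the lowest, and the labels overlapped.

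GABARAP and MAP1LC3A had few reads. GABARAP (chromosome 17, 7240014 to 7242770, minus strand), which gave its name to a branch of the family, had 8.59, 19.8 and 29.9 normalized reads at P8, P12 and P13 under the GOLPH3 label and 13.4, 6.57 and 17.2 at P12, P11 and P13 under the Vector label. That is 6 to 28 recovered reads a library, of a gene that is usually abundant in human cells. In GENCODE 29 its principal transcript has 1634 bases, of which 42.3% also lie in exons of AC120057.2, a protein-coding gene model on the same strand, and 74.7% in exons of either AC120057.2 or AC120057.3, a model on the opposite strand. Of its 351 coding bases, 261 lie in AC120057.2 and the other 90 in AC120057.3. AC120057.2 had no reads in any library, and AC120057.3 had 5.15 to 27.8 normalized reads. How the counting treated reads that fall in more than 1 gene model is not given, so the GABARAP level is uncertain, and the part of the overlap in it was not tested.

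**Figure D1:**
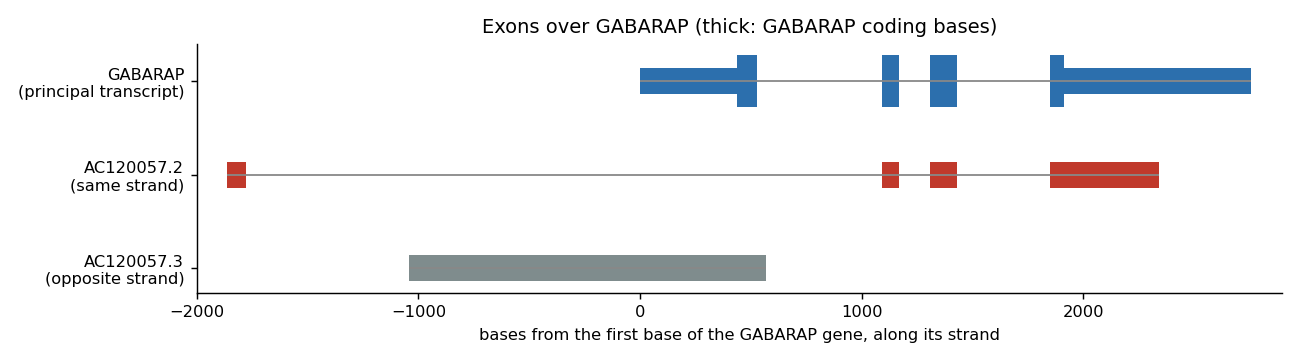
Exons of the principal GABARAP transcript and of the overlapping gene models AC120057.2 (same strand) and AC120057.3 (opposite strand), by distance in bases from the start of GABARAP along its strand. Wide blocks mark the 351 coding bases of GABARAP, each of which lies in an exon of 1 of the other models.

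MAP1LC3A (chromosome 20, 34546854 to 34560345), which encodes the LC3A proteins, had 3, 1 and 0 recovered reads under the GOLPH3 label and 1, 0 and 0 under the Vector label. It did not reach 1 normalized read in 3 libraries, the minimum for a test, and its level was at or under the limit of 3 reads in every library. The further paralogue MAP1LC3C had 0 to 4.12 normalized reads and the GABARAPL3 copy had 0 reads throughout, which allows up to 3 reads a library.

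Of the receptors, SQSTM1 was the most variable. It encodes p62, which binds ubiquitin and LC3, forms condensates with ubiquitinated cargo and also holds KEAP1, the inhibitor of the NRF2 transcription factor. The gene lies on chromosome 5 from 179806398 to 179838078. It had 4879, 11033 and 8205 normalized reads at P8, P12 and P13 under the GOLPH3 label. It had 4923, 1939 and 2952 normalized reads at P12, P11 and P13 under the Vector label. At each P number that both labels share, the library labelled GOLPH3 was the higher, and the labels overlapped only by the narrow gap between the P8 library labelled GOLPH3 and the P12 library labelled Vector. On the opposite strand, exons of MRNIP cover 20.7% and exons of MGAT4B cover 1.37% of the exon bases of SQSTM1. MRNIP had 531 to 1028 normalized reads, and whether the counting used strand is not given.

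NBR1 (chromosome 17, 43170481 to 43211689), a receptor that works beside p62, had 2131, 2857 and 2060.2 normalized reads at P8, P12 and P13 under the GOLPH3 label and 2803, 2119.8 and 1851 at P12, P11 and P13 under the Vector label. OPTN (chromosome 10, 13099449 to 13138308) encodes optineurin, a receptor for damaged mitochondria and bacteria that the kinase TBK1 activates. It had 647, 1559 and 849.7 normalized reads against 1049, 677 and 574. In both genes the 2 libraries at P12 were the highest of the 6, and the labels overlapped.

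CALCOCO2 (chromosome 17, 48830988 to 48866522) encodes NDP52, which recruits the autophagy machinery to bacteria and mitochondria. It had 1844, 3230.8 and 1899 normalized reads under the GOLPH3 label and 3404, 2072 and 1477 under the Vector label, again with both P12 libraries on top. TAX1BP1 (chromosome 7, 27739331 to 27844564), a relative of NDP52 that takes part in clearing protein aggregates, had 2472, 2779.7 and 1484 against 3652, 3294 and 1945. Its lowest library under each label was the one at P13 and its highest the one at P12.

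**Figure D2:**
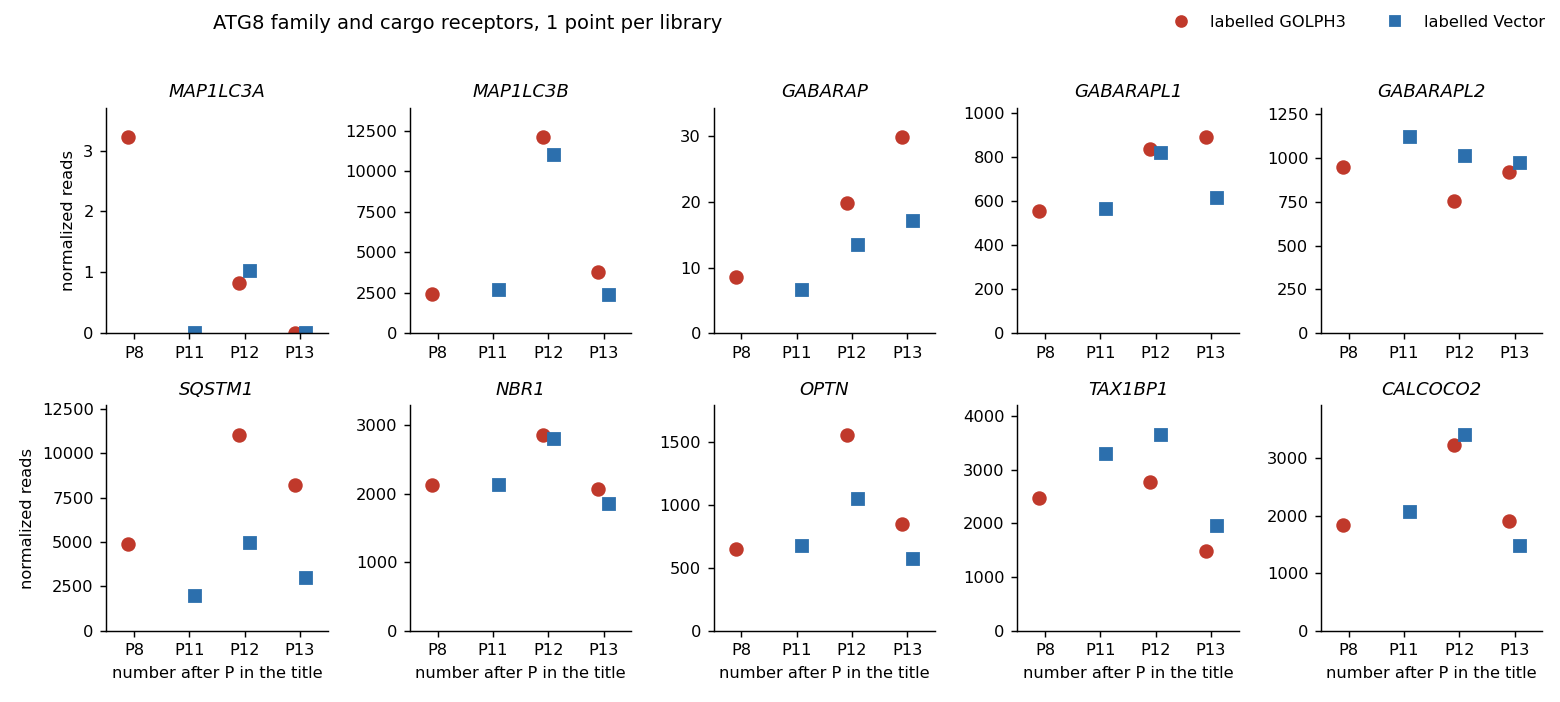
Normalized reads (linear axes from 0, a scale for each gene) of the 10 genes in the 6 libraries, by the number after P in the library titles, with circles for libraries labelled GOLPH3 and squares for those labelled Vector. MAP1LC3B at 12115 and 11019.5 in the P12 libraries stands above 2362 to 3772 elsewhere, and SQSTM1 is higher under the GOLPH3 label at P12 and at P13.

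The question the study put was how cells with PMSCV-GOLPH3 differ from cells with the empty vector. On the log2(normalized reads + 1) scale, which understates changes of low genes, SQSTM1 had the largest label difference of the 9 genes tested, 1.32 higher in the libraries labelled GOLPH3 (standard error 0.39, 95% interval 0.46 to 2.18, a 2.50-fold difference), with means of 8039 ± 3081 (SD, n = 3) and 3271 ± 1517 (SD, n = 3). It did not pass the threshold, with an adjusted p of 0.0834 from limma with Benjamini-Hochberg adjustment. None of the 9 genes did, where 5.07% of the 26536 genes tested were called, 253 of them higher (0.953%) and 1093 lower (4.12%). SQSTM1 alone of the 9 had an unadjusted p under 0.05, as did 17.6% of all genes. edgeR called 0 of the 9 and 1113 genes in all. DESeq2 called SQSTM1 (adjusted p = 0.0308) among 1991 genes in all. Without the P8 library labelled GOLPH3 the limma adjusted p of SQSTM1 was 0.029, and with each of the other 5 libraries left out it was 0.0636 to 0.238.

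The SQSTM1 difference was 1.16 within P12 and 1.47 within P13, and 1.33 between the remaining libraries, P8 labelled GOLPH3 and P11 labelled Vector, each from 1 library a side. When the P number was a block, with P8 and P11 in the same block, the standard error fell to 0.14 and SQSTM1 was called (limma adjusted p = 5.95e-05), in a fit that called 20.9% of all genes, 9.43% higher and 11.5% lower. A difference above 0 in all 3 settings was held by 24.2% of all genes, and by 3 of the 9 here, SQSTM1, GABARAP and NBR1. A difference below 0 in all 3 was held by 26% of all genes and by GABARAPL2 and TAX1BP1.

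The other 8 genes gave label differences from -0.40 to 0.55. TAX1BP1 had the lowest, -0.40 (95% interval -1.14 to 0.34, limma adjusted p = 0.599), with -0.39 within P12, -0.39 within P13 and -0.41 between P8 and P11. With the P number as a block its limma adjusted p was 0.0635. GABARAPL2 was the only 1 of the 9 whose labels did not overlap, where 22% of all genes have labels that do not, and its difference was -0.24 (95% interval -0.83 to 0.35, limma adjusted p = 0.699). An exact two-sided permutation test of its 6 levels gave p = 0.1, the smallest that 3 against 3 allows. MAP1LC3B differed by 0.23 between labels with an interval from -1.15 to 1.6, and each label holds 1 of the high P12 libraries. Over the 9 genes the median label difference was 0.19, against 0.02 over all genes tested.

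The P12 comparison set the 2 libraries at P12 against the other 4, with the label as a covariate. The interest in P12 came from earlier results of these data, so its p-values and ranks describe the split and are not an independent test of it. MAP1LC3B had a mean of 11567 normalized reads at P12 against 2810 in the other libraries, 4.12-fold, and a log2 difference of 2.07 (standard error 0.30, 95% interval 1.41 to 2.72). Its p had rank 3 among all genes (3.39e-05), but the limma adjusted p was 0.2. An exact two-sided permutation test of its levels gave p = 0.0667, the smallest that the 15 ways of choosing 2 of 6 libraries allow. In log2 difference, 203 of the 26536 genes tested (0.765%) reached the value of MAP1LC3B, and 17 of the 4247 genes with a mean of at least 1000 normalized reads (0.4%) did.

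No gene was called in the P12 comparison by limma, and 1920 genes (7.24%) had an unadjusted p under 0.05. Among those were 4 of the 9, MAP1LC3B, OPTN, CALCOCO2 and SQSTM1. edgeR called 0 of 18069 genes, and DESeq2 called 200 of 15908 (1.26%), with MAP1LC3B as the only 1 of the 9 (adjusted p = 7.22e-06). A further fit gave P13 a level of its own, with P12 still set against the mean of P13 and of P8 with P11. The log2 difference of MAP1LC3B stayed at 2.07 and its standard error fell to 0.18. There limma called 1073 genes (4.04%), 695 higher (2.62%) and 378 lower (1.42%). In that fit 4 of the 9 were called, all higher at P12, namely MAP1LC3B (adjusted p = 0.000138), SQSTM1 (0.0063), CALCOCO2 (0.0122) and OPTN (0.0177). In the first fit MAP1LC3B was called when the P13 library labelled GOLPH3 was left out (limma adjusted p = 0.0267), and with each of the other 5 left out its adjusted p was 0.101 to 1.

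After MAP1LC3B the receptors had the largest P12 differences. SQSTM1 differed by 0.92 (95% interval 0.19 to 1.65), OPTN by 0.91 (0.27 to 1.55), CALCOCO2 by 0.87 (0.25 to 1.50), TAX1BP1 by 0.53 (-0.21 to 1.27) and NBR1 by 0.47 (-0.12 to 1.07), with limma adjusted p from 0.504 to 0.826. The remaining ATG8 genes had 0.37 (GABARAPL1), 0.28 (GABARAP) and -0.18 (GABARAPL2), with intervals that include 0. Both P12 libraries lay above all other libraries in MAP1LC3B, NBR1, OPTN and CALCOCO2, 4 of the 9, against 6.74% of all genes, and below them in none of the 9, against 6.1%. The P12 library was the highest of its own label in 6 of the 9, these 4 with SQSTM1 and TAX1BP1, against 14% of all genes. The median P12 difference was 0.53 over the 9 genes and 0.02 over all genes tested.

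The P13 comparison set the 2 libraries at P13 against the P8 and P11 libraries, with the label and P12 in the fit, and it shares the P8 and P11 libraries with the P12 comparison. SQSTM1 was higher at P13 by 0.68 (standard error 0.18, limma adjusted p = 0.0217) and TAX1BP1 fell by 0.75 on the log2 scale (standard error 0.17, limma adjusted p = 0.0118). These 2 of the 9 were called where 16.9% of all genes were, 10% higher and 6.84% lower. The TAX1BP1 call held with each library left out in turn. The SQSTM1 call was lost without the P8 library labelled GOLPH3 (limma adjusted p = 0.0539), the P13 library labelled GOLPH3 (0.0852) or the P11 library labelled Vector (0.0937), and under quantile normalization (0.0609). GABARAP had the largest value, 1.47, with a 95% interval of 0.10 to 2.85 and a limma adjusted p of 0.138 on its few reads. MAP1LC3B differed by 0.23 (95% interval -0.23 to 0.68). Both P13 libraries were above the P8 and P11 libraries in GABARAP and GABARAPL1, against 21.6% of all genes, and below them in NBR1 and TAX1BP1, against 22.8%.

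**Figure D3:**
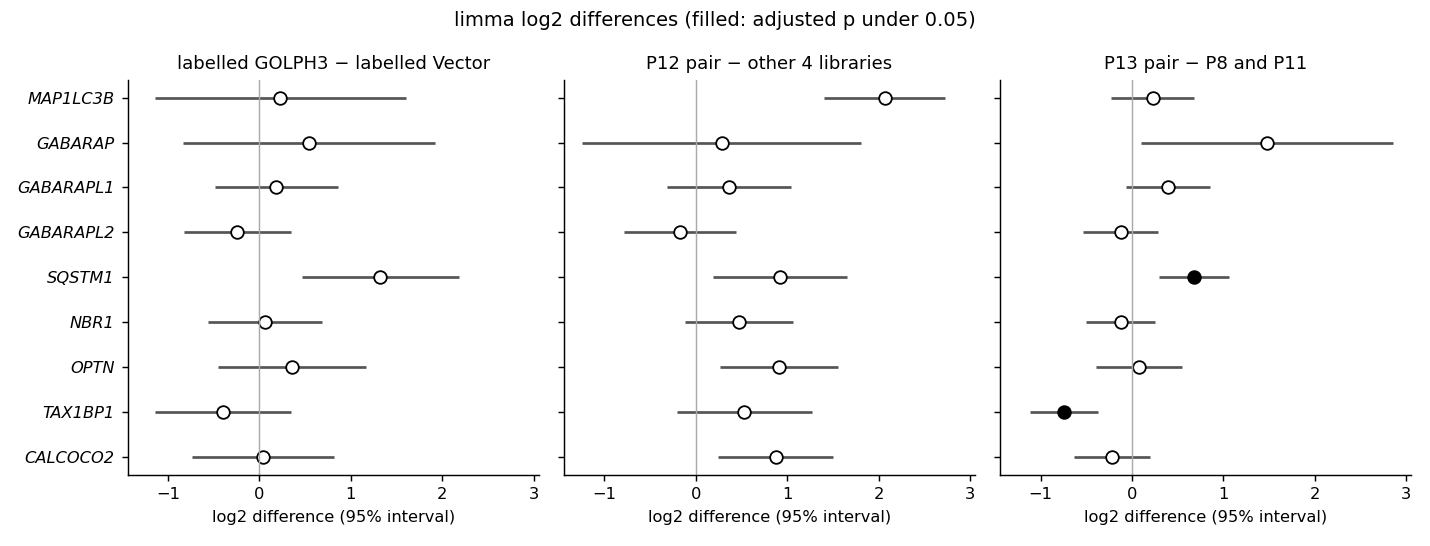
Log2 differences with 95% confidence intervals from limma for the 9 genes tested, in the label comparison, the P12 pair against the other 4 libraries, and the P13 pair against P8 and P11. Filled points have an adjusted p under 0.05, which SQSTM1 (0.68) and TAX1BP1 (-0.75) reach at P13 and no gene reaches in the other panels, while MAP1LC3B has the largest value, 2.07, at P12.

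To compare levels between genes, normalized reads were divided by the exon bases of each gene in kilobases. MAP1LC3B had the highest mean level per kilobase, 1078 ± 859 (SD, n = 6), and SQSTM1 the next, 739 ± 444, with overlapping ranges. This order rested on the P12 libraries, since the median over the 6 libraries was 606 for MAP1LC3B and 640.3 for SQSTM1, and SQSTM1 was the higher at P8 (637 against 459) and P13 (1072 against 710) of the GOLPH3 label. GABARAPL2 (315 ± 39.3), TAX1BP1 (284 ± 88.8), CALCOCO2 (279 ± 95.7) and NBR1 (274 ± 50.01) followed with overlapping ranges. GABARAPL1 (175 ± 37.2) and OPTN (174 ± 71.7) overlapped each other, and the ranges of NBR1 and GABARAPL1 did not meet. GABARAP (7.02 ± 3.74) and MAP1LC3A (0.48 ± 0.71) came last, each below the range of the gene before it. With the longest transcript as the length, SQSTM1 came before MAP1LC3B (1894 ± 1137 and 1857 ± 1479) and GABARAPL2 moved from rank 3 to rank 6.

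Per kilobase, MAP1LC3B made up 50.2%, 83.1% and 57.0% of the ATG8 family at P8, P12 and P13 under the GOLPH3 label, and 79.3%, 49.6% and 48.2% at P12, P11 and P13 under the Vector label. The rest was almost all GABARAPL2 and GABARAPL1. The sum of the family was 2744 and 2614 normalized reads per kilobase at P12 against 914 to 1245 elsewhere. Both the share and the sum at P12 follow from the MAP1LC3B level and are not further traits of these libraries. GABARAPL2 had 249 and 333 per kilobase in the P12 libraries labelled GOLPH3 and Vector and 304 to 369 elsewhere. GABARAPL1 had 205 and 201 at P12 and 136 to 218 elsewhere. SQSTM1 made up 42.3%, 51.9% and 57.3% of the receptors under the GOLPH3 label and 32.4%, 20.3% and 34.8% under the Vector label. The labels did not overlap in this share, which also depends on the other receptors, while they overlapped in the SQSTM1 level itself. In level, 22% of all genes have labels that do not overlap.

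**Figure D4:**
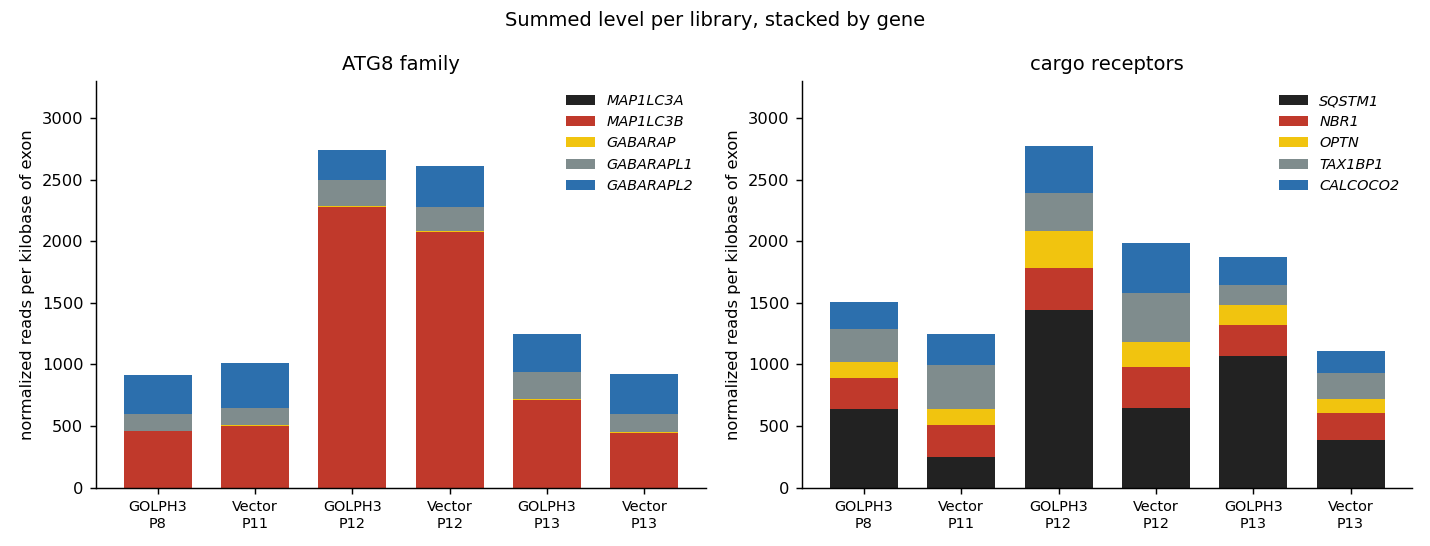
Normalized reads per kilobase of exon in each library, stacked by gene, for the ATG8 family (left) and the receptors (right), with libraries ordered by P number. MAP1LC3B fills 83.1% and 79.3% of the ATG8 bar at P12 and 48.2% to 57.0% in the other libraries, and SQSTM1 is the part of the receptor bar that differs most between labels.

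Of 11 genes tested of the machinery that attaches ATG8 proteins to membranes, limma called 1 between labels. Of all genes tested 5.07% were called, 0.953% higher and 4.12% lower. ATG4C, a protease that trims ATG8 precursors, was lower in the libraries labelled GOLPH3, with 297, 216 and 159 normalized reads against 620, 593 and 472 (log2 difference -1.36, standard error 0.33, limma adjusted p = 0.0347). The related protease ATG4D had 517, 703 and 857 against 470.4, 204 and 557 (0.85, limma adjusted p = 0.297) and was higher at P13 by 1.09 (limma adjusted p = 0.00964). ATG12, the ubiquitin-like protein of the cascade, followed the P12 pattern of MAP1LC3B, with 4483 and 4703 normalized reads in the P12 libraries against 1334 to 2411 in the other 4 (1.29, limma adjusted p = 0.344, and 0.00363 with P13 as a level of its own). ATG3, the enzyme that hands ATG8 to its lipid, had 1242 and 1541 at P12 against 730 to 1087 (0.63, limma adjusted p = 0.663). At P13 2 of the 11 genes were higher and 1 was lower, against 10% and 6.84% of all genes. Between labels edgeR and DESeq2 each called 1 of the 11, where they called 1113 and 1991 genes in all. At P12 limma and edgeR called 0 of the 11 and DESeq2 called 1, against 1.26% of the genes DESeq2 tested. An unadjusted limma p under 0.05 was held by 1 of the 11 between labels (17.6% of all genes) and by 2 at P12 (7.24%).

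Of 21 initiation and nucleation genes, 0 were called between labels or at P12 by limma, and 4 were higher and 5 lower at P13 (10% and 6.84% of all genes, here and for the next lists). WIPI1, which reads the lipid signal of the forming membrane, had 423, 364 and 509 normalized reads against 225, 219 and 169.9 (label difference 1.07, limma adjusted p = 0.0778), and ATG101, a subunit of the ULK1 complex, was higher at P13 by 1.95 (limma adjusted p = 0.00141). Of 18 other autophagy receptors, 0 were called between labels or at P12, and 5 were higher and 3 lower at P13. CCPG1, a receptor for the endoplasmic reticulum, had a label difference of -1.27 (limma adjusted p = 0.188) and the mitochondrial receptor FUNDC1 of -0.70 (limma adjusted p = 0.234). Among 8 kinases and partners of the receptors, 0 were called between labels or at P12. At P13 3 were higher, which include KEAP1 (0.95, limma adjusted p = 0.00671) and the mitophagy kinase PINK1 (1.10, limma adjusted p = 0.00741), and 2 were lower, which include the TBK1 partner TANK (-1.39, limma adjusted p = 0.00218). Of 22 lysosome genes and TFEB family factors 21 were tested, and 0 were called between labels or at P12 and 4 were higher at P13. CTSB, a lysosomal protease, had a label difference of 0.86 (limma adjusted p = 0.110) and NPC2, a cholesterol carrier of the lysosome, of 0.97 (limma adjusted p = 0.106). Over these 4 lists, 0 to 5 genes of a list had an unadjusted p under 0.05 between labels (17.6% of all genes). At P12 the range was 0 to 3 (7.24% of all genes). edgeR called 0 in each, and DESeq2 called 1 initiation gene between labels, among 1991 genes in all. With the P number as a block limma called genes between labels in every list, where it called 9.43% of all genes higher and 11.5% lower. The counts were 3 higher and 1 lower of 11 conjugation genes, 3 and 2 of 21 initiation genes, 2 and 4 of 18 other receptors, 2 and 0 of 8 kinases and partners, and 6 and 5 of 21 lysosome genes. With P13 as a level of its own, limma called 2.62% of all genes higher at P12 and 1.42% lower. It called 1 of 11 conjugation genes higher, 1 of 21 initiation genes higher and 1 lower, and 1 of 18 other receptors higher. Of 21 lysosome genes 2 were higher and 1 lower, and 0 of 8 kinases and partners were called.

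Transcription factors of 2 stress responses are known to act on several of these genes. ATF4 and CHOP, which respond to amino acid shortage and endoplasmic reticulum stress, are known activators of MAP1LC3B, SQSTM1 and ATG12, and NRF2, which responds to oxidants, is a known activator of SQSTM1. Of 15 genes of the ATF4 and CHOP response, all 15 had a P12 difference above 0, as did 13673 of the 26536 genes tested. The median of the 15 was 1.54, against 0.02 over all genes. limma called 0 of the 15 at P12, where 11 had an unadjusted p under 0.05, against 7.24% of all genes. edgeR called 0 of the 15 and DESeq2 called 3, against 1.26% of the genes DESeq2 tested. With P13 as a level of its own, 11 of the 15 were called higher, against 2.62% of all genes. TRIB3, a pseudokinase induced by ATF4 and CHOP, had 8844 and 5131 normalized reads in the P12 libraries labelled GOLPH3 and Vector, and 539 to 3343 in the other 4 (2.27, limma adjusted p = 0.282). SLC7A11, the cystine importer, had 5012 and 3680 at P12 against 1012 to 1665 (1.64, limma adjusted p = 0.216). At P13 10 of the 15 were higher by limma, against 10% of all genes, which include TRIB3 (1.55, adjusted p = 0.00141) and DDIT4, an inhibitor of mTORC1 signalling (2.94, adjusted p = 0.00106). MAP1LC3B was not called at P13 (0.23, limma adjusted p = 0.512). The part of the ATF4 and CHOP response in the levels of MAP1LC3B, SQSTM1 and ATG12 was not tested. Between labels only VLDLR was called in this list, lower under the GOLPH3 label (-3.68, limma adjusted p = 0.0025), where 4.12% of all genes were called lower. The fit blocked by P number called 4 of the 15 higher and 2 lower, against 9.43% and 11.5% of all genes.

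Of 14 NRF2 targets, limma called 0 between labels, against 5.07% of all genes, with a median label difference of 0.81. An unadjusted p under 0.05 was held by 7 of the 14 and by 17.6% of all genes. edgeR called 0 of the 14 and 1113 genes in all, and DESeq2 called 4 of the 14 and 1991 genes in all. NQO1, a quinone reductase and common reporter of NRF2, had 5752, 4128 and 6152 normalized reads under the GOLPH3 label and 2437, 3361 and 2158 under the Vector label (1.02, limma adjusted p = 0.0755). OSGIN1, an oxidative stress response gene, had a label difference of 1.84 (limma adjusted p = 0.0845). With the P number as a block 8 of the 14 were called higher and 0 lower, against 9.43% and 11.5% of all genes. None of the 14 was called in the first P12 fit by limma, edgeR or DESeq2, where 2 had an unadjusted p under 0.05 (7.24% of all genes). With P13 as a level of its own, limma called 3 of the 14 higher and 1 lower at P12, against 2.62% and 1.42% of all genes. At P13 5 were higher and 3 lower, against 10% and 6.84%. The part of NRF2 in the level of SQSTM1 was not tested.

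**Figure D5:**
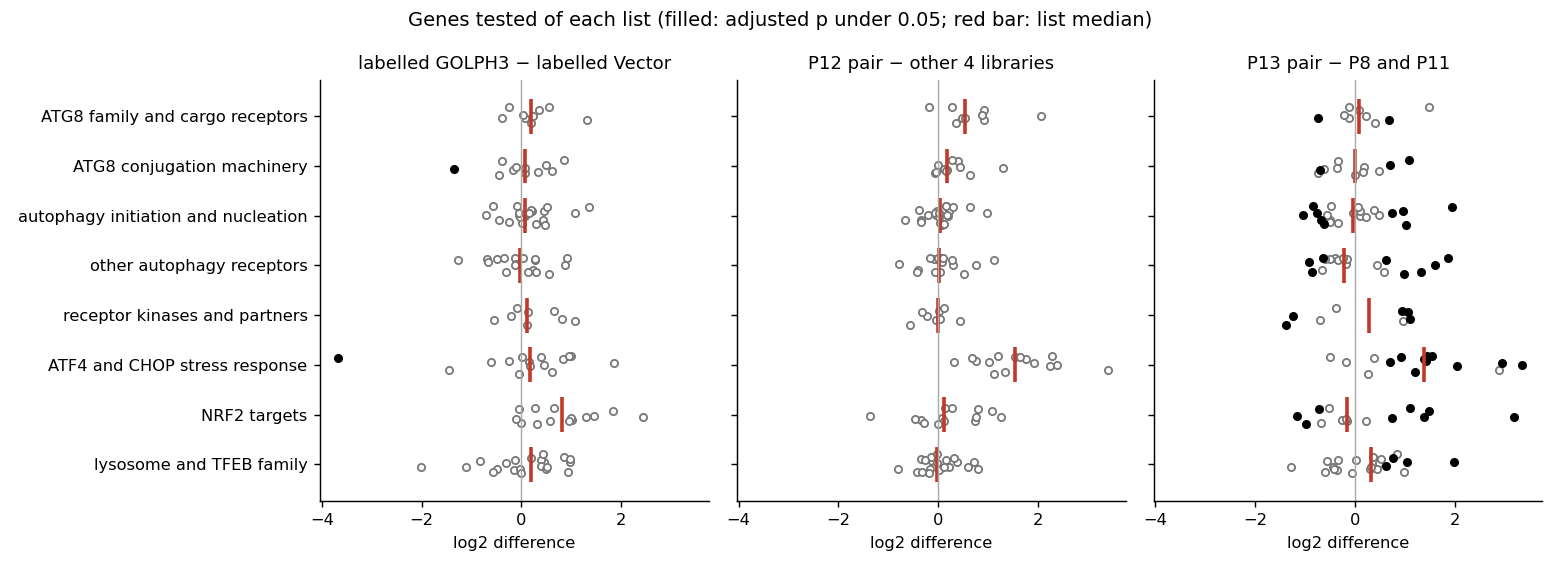
Log2 differences of the ATG8 family and receptor genes and of 7 related gene lists, 1 point a gene, in the 3 comparisons, with filled points for a limma adjusted p under 0.05 and a bar for the median of each list. At P12 the ATF4 and CHOP list has a median of 1.54 and the ATG8 family and receptors 0.53, while the NRF2 list has the highest median, 0.81, between labels.

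Among 11266 genes with a mean of at least 100 normalized reads, the 5 whose log2 levels over the 6 libraries were most like MAP1LC3B were GAS5, TOMM34, CRCP, FBXO32 and HDAC9, with Pearson correlations from 0.981 to 0.996. The P12 pair makes up 2 of the 6 points, and the values are a description only. GAS5, a long noncoding RNA that hosts small nucleolar RNAs and builds up when translation slows, had 12759 and 11313 normalized reads at P12 and 4899 to 6689 elsewhere. The 5 most like SQSTM1 were SMURF1, TRIM8, UNC13D, HPCAL1 and CDKN1A, with correlations from 0.993 to 0.995. CDKN1A, which encodes the cell cycle inhibitor p21, had 5802, 13132 and 9892 normalized reads under the GOLPH3 label and 6688, 3029 and 4642 under the Vector label.

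RefSeq promoter sequences (GRCh38.p14) were held for 9 of the 10 genes, and the 250 bases before each start were searched on both strands for 4 motifs of the factors above. TGATGNAA, a core of the ATF4 response element, was in 3.14% of 35116 promoters and in none of the 9. CACGTG, the E-box that TFEB binds, was in 6.34% and in none of the 9. TGACNNNGC, the core of the antioxidant response element, was in 10.9% of promoters and in those of MAP1LC3B and CALCOCO2. TGACGTCA, the cAMP response element, was in 1.65% and in that of GABARAPL1. No motif overlapped another in these promoters. The matches are shown with the motif in capitals, from the plus strand, since MAP1LC3B and CALCOCO2 are genes with P12 libraries on top.
MAP1LC3B, chr16:87392280-87392308: gcgagtcaccTGACCAGGCtgcgggctga
CALCOCO2, chr17:48830896-48830924: cgctcctgggGCCCGGTCAcctgaacact
GABARAPL1, chr12:10212837-10212864: gctcgcggggTGACGTCAcagcccgacg

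The CALCOCO2 match reads on the minus strand, 129 bases before the start, and the matches of MAP1LC3B and GABARAPL1 begin 46 and 30 bases before the RefSeq start. Both of the latter lie wholly within GENCODE 29 exons, counted over all genes on either strand. The GENCODE 29 gene starts of MAP1LC3B and GABARAPL1, given above, are further upstream. These are matches of letters in a window and not measured binding, and the absence of a match says nothing about a factor.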

How the data were processed

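RNA was sequenced from 3 HCT-116 libraries labelled GOLPH3 and 3 labelled Vector, which the methods describe as taken from separate generations of the lines, so p-values measure the spread between these samples only. For each gene and library the authors deposited a normalized signal. Their processing notes name fastp 0.20.0, HISAT2 2.1.0, featureCounts 1.6.1, Cufflinks and DESeq2 and the GRCh38 genome, with no role or order. In every library 100% of values were whole multiples of a step between 0.825 and 1.10 (tolerance 0.01 of a read), so the values are reads divided by a size factor per library and the whole reads could be recovered. Where an identifier had a second row (44 cases) both rows were summed. Of 60546 identifiers, 58367 (96.4%) were in GENCODE 29. Any 2 libraries of a label differed by more than sampling noise, and mitochondrial genes took 4.41% to 9.97% of reads.

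limma 3.58.1 (R 4.3.3) was run on log2(value + 1) with a mean-dependent prior for the 26536 genes that reached a value of 1 in 3 or more libraries, with Benjamini-Hochberg adjustment over all of them and a threshold of 0.05. Alternatives were edgeR 4.0.16 and DESeq2 1.42.0 run with the recovered reads, 0.1 as the pseudocount, no filter, a minimum of 10 in every library, quantile normalization, blocks of replicate or P number, no label term, and leaving out libraries. The main design of each comparison was tested on simulated data with limma, edgeR and DESeq2. The fits with other designs, filters or settings were not. The members, the lists and the P12 split were chosen with earlier results of these data known. The genes named are the 10 members, GOLPH3, the copies of ATG8 genes, the genes most like MAP1LC3B and SQSTM1, and genes from among the 2 of each list with the smallest p in the label and in the P12 comparison. Exon overlaps, 50-base words and coding sequences came from GENCODE 29, and promoters from RefSeq.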

Additional observations from a re-analysis of the deposited data

Results flagged for a closer look

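CALCOCO2 was lower in the library labelled GOLPH3 than in that labelled Vector within P12, by -0.075 on the log2 scale, and higher within P13, by 0.36. The directions differ between the P numbers, with 1 library a side, and the difference was not tested.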

How the results depend on the processing

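By replicate number in the titles, the correlations of deviations were -0.23, -0.15 and 0.26, the last for replicate 3, which is also the P13 pair. By P number they were 0.26 at P12 and 0.26 at P13. P8 with P11, which do not share a P number, had 0.33, so these values do not show that the P number pairs libraries. With the replicate number as a block 1081 genes and 0 of the 9 members were called between labels. The number of genes called between labels was 170 with at least 10 normalized reads in every library, 5549 with P as a block, 256 without the P12 libraries, and 459 to 1528 with 1 library left out. The number of members called between labels was 1 with DESeq2, 1 with P as a block, and 0 to 1 with 1 library left out. At P12 the genes called were 200 with DESeq2, 1073 with P13 as a level of its own, and 0 to 23 with 1 library left out, and the members called were 1, 4 and 0 to 1. A fit with 1 library left at P12 assumes that it varies like the others. At P13 1 member was called under quantile normalization and 1 to 2 with 1 library left out, and 2049 to 5275 genes. The cause of these changes was not tested. Quantile normalization turned NBR1 (-0.017) and CALCOCO2 (-0.035) between labels and OPTN at P13 (-0.021). Leaving out 1 library turned some uncalled differences, which then ranged from -0.44 to 0.94 (MAP1LC3B), -0.086 to 0.23 (NBR1) and -0.24 to 0.36 (CALCOCO2) between labels, from -0.077 to 0.65 for GABARAP at P12, and at P13 from -0.11 to 0.56 (MAP1LC3B), -0.24 to 0.39 (OPTN), -0.25 to 0.00067 (GABARAPL2) and -0.46 to 0.019 (CALCOCO2). Quantile normalization moved the median label difference of all genes from 0.02 to 0.09. The P12 difference of MAP1LC3B was 1.94 to 2.21 with 1 library left out. Depth limits what can be said of MAP1LC3A and GABARAP, and 1 library at each of P8 and P11 leaves no check within them.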
